A study of Homo sapiens with 14 samples.

Results

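The genes described here make microRNAs and carry their precursors out of the nucleus: DROSHA, DGCR8, DDX5, DDX17, SRRT, XPO5, DICER1, TARBP2 and PRKRA. They were chosen by symbol for their role. Each of the 9 symbols matched 1 Ensembl identifier in the deposited table of 18006 genes, and all 9 passed the filter on low counts that left 12080 genes for testing. Their read counts were followed through 14 RNA sequencing libraries of HEK 293, an established human embryonic kidney cell line. Reads came from poly(A)-selected, stranded libraries of total RNA. The groups were CFIm25 knockdown (n = 2), CFIm68 knockdown (n = 3), CFIm25 overexpression (n = 3), CFIm68 overexpression (n = 3) and control (n = 3). The controls are labelled wild type. CFIm25 (gene NUDT21) and CFIm68 (gene CPSF6) are subunits of cleavage factor I, a complex that binds the sequence UGUA in pre-messenger RNA and steers the choice between polyadenylation sites. Knockdown was by siRNA, delivered with Lipofectamine RNAiMAX. The overexpression construct, the origin of those cells and any mock treatment of the controls were not given in the sources used here.

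A microRNA starts as a hairpin inside a long primary transcript. In the nucleus the Microprocessor cuts the hairpin out: DROSHA is the endonuclease, DGCR8 its RNA-binding partner, and the helicases DDX5 and DDX17 assist it on a subset of transcripts. SRRT, also called ARS2, links the cap-binding complex on primary transcripts to this step. XPO5 (exportin 5) carries the precursor to the cytoplasm with RanGTP. There DICER1 cuts off the loop, with TARBP2 (TRBP) or PRKRA (PACT) as its double-stranded RNA-binding partner, and the product is handed to an Argonaute protein. DROSHA and DGCR8 are also known to regulate each other, since DROSHA cleaves hairpins inside the DGCR8 messenger RNA.

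These hairpins are annotated as microRNA genes within exons of DGCR8 on chromosome 22, so the reads counted for DGCR8 come from a transcript that is itself a Microprocessor substrate. Their mature products are shown for that reason. Sequences are from RefSeq on GRCh38.p14, plus strand, 5′ to 3′, and capitals mark the seed, bases 2 to 8.
hsa-miR-3618 (chr22:20085797-20085818): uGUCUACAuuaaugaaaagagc
hsa-miR-1306-5p (chr22:20086072-20086093): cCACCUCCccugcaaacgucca
hsa-miR-1306-3p (chr22:20086112-20086129): aCGUUGGCucugguggug
No seed is shared among them. DDX5 (MIR3064 and MIR5047) and DICER1 (MIR3173) also hold annotated microRNA genes on their own strand. Counts per gene do not show how much of any hairpin was cut.

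The letters TGTA, the DNA form of the motif bound by CFIm25, occur at least once in the longest annotated 3' untranslated region of each of the 9 genes, against 89.6% of 11825 tested genes with such a region. Matches were counted on the transcript strand of GENCODE 29, overlaps allowed. DICER1 holds the most, 26 in 4270 bases, or 6.09 per kb, against a median of 4.94 per kb over tested genes. DDX17 holds 13 in 2495 bases and XPO5 8 in 1538 bases. DROSHA, with 2 in 935 bases, and DGCR8, with 3 in 1767 bases, have lower densities than the median, at 2.14 and 1.70 per kb. SRRT packs 3 matches into a region of 115 bases. The match closest to the annotated 3' end is shown for the 4 genes whose counts moved most, as 30 bases of GENCODE 29 transcript sequence on hg38, 5′ to 3′, with that match in capitals.
DICER1 (chr14:95086251-95086280, minus strand): tttttgtaataatTGTAgccaagtaaatct
DDX17 (chr22:38483454-38483483, minus strand): cttgttttcttttTGTAggtataaataaaa
DROSHA (chr5:31400497-31400526, minus strand): attaataaaggcaaaacttcttTGTAaaac
SRRT (chr7:100888610-100888639, plus strand): tctgagaatttttTGTAcgatcagccttac
From the first base of the match to the annotated end, the match included, there are 40 bases in DICER1, 31 in DDX17, 8 in DROSHA and 42 in SRRT. A match of these letters is a description and does not show binding.

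Total counts per library ran from 15822467 to 33895308. The labels do not tie replicates to separate cultures, and the p-values then reflect spread between libraries that may be technical only. The targeted genes followed the labels. NUDT21 averaged 53.8 ± 1.20 CPM (counts scaled to library size) in CFIm25 knockdown and 729 ± 55.6 CPM in CFIm25 overexpression, against 514 ± 19.6 CPM in control. CPSF6 averaged 41.6 ± 1.00 CPM in CFIm68 knockdown and 730 ± 17.4 CPM in CFIm68 overexpression, against 268 ± 5.75 CPM in control (SD, n as above). Each knockdown also moved the other subunit's gene: NUDT21 averaged 232.5 ± 9.30 CPM in CFIm68 knockdown, below control, and CPSF6 averaged 533 ± 10.2 CPM in CFIm25 knockdown, above control. CFIm68 overexpression also had more NUDT21, at 597 ± 47.9 CPM (log2 0.22 ± 0.06 against control, edgeR adjusted p = 0.00488), while CPSF6 in CFIm25 overexpression, at 252 ± 13.3 CPM, did not pass. Of the markers that HEK 293 cells are known for, NEFL (188 to 310 CPM), VIM (477 to 941 CPM) and LIN28B (17.3 to 34.2 CPM) were present in every library, whereas PAX2 (1.69 to 5.17 CPM) and NEFM (0.0615 to 0.863 CPM) were low. Summed, these 5 markers stood at 798 to 829 CPM in CFIm25 knockdown, 880.4 to 913 CPM in CFIm68 knockdown, 1091 to 1220 CPM in CFIm25 overexpression and 873 to 896 CPM in CFIm68 overexpression, against 977 to 1029 CPM in control. Of markers of other cells, KRT5, KRT14, KRT6A, COL1A2, PTPRC, CD3E and ALB were at most 0.290 CPM in any library. KRT17 made up nearly all of the 4 epithelial markers' sum, which was 4.84 to 6.86 CPM in CFIm25 knockdown, 9.74 to 14.4 CPM in CFIm68 knockdown, 10.3 to 13.7 CPM in CFIm25 overexpression and 2.35 to 2.77 CPM in CFIm68 overexpression, against 3.89 to 4.40 CPM in control. The 3 fibroblast markers, mostly COL1A1, summed to 49.4 to 54.8 CPM, 64.0 to 65.6 CPM, 47.2 to 56.9 CPM and 24.5 to 27.9 CPM in those 4 groups, against 47.8 to 52.1 CPM in control. The part of these markers in the results below was not tested.

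In both knockdowns most genes of the nuclear steps went down and DICER1 went up. Against control, CFIm68 knockdown had lower DROSHA, DGCR8, DDX5, DDX17, SRRT, XPO5 and PRKRA, and higher DICER1. CFIm25 knockdown shared these directions, except that XPO5 did not pass the test. In counts, 1 of 9 rose, 7 fell and 1 did not pass in CFIm68 knockdown, and 1 rose, 6 fell and 2 did not pass in CFIm25 knockdown (edgeR quasi-likelihood test, adjusted p under 0.05). Over all tested genes 56.4% were called in CFIm68 knockdown, 28.3% higher and 28.1% lower, and 47.6% in CFIm25 knockdown, 24.4% higher and 23.2% lower. The 9 genes had a median log2 change of -0.28 under CFIm68 knockdown, where all tested genes had 0.00079, and of -0.26 under CFIm25 knockdown, where all tested genes had 0.0047. The overexpression groups had other patterns. In CFIm25 overexpression 6 of the 9 fell and 0 rose (also 0 at an unadjusted p under 0.05, and by DESeq2 and limma-voom), with 56.7% of all tested genes called, 29.1% lower and 27.7% higher. Their median was -0.17. CFIm68 overexpression gave 2 higher, 2 lower and 5 not past, with 29.8% of all tested genes called, 14.5% higher and 15.4% lower, and a median of 0.01. Without CFIm68 overexpression replicate 3 the count of called genes was 1 in place of 4. All 4 comparisons use the same 3 controls, so their values for a gene are not independent.

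**Figure D1:**
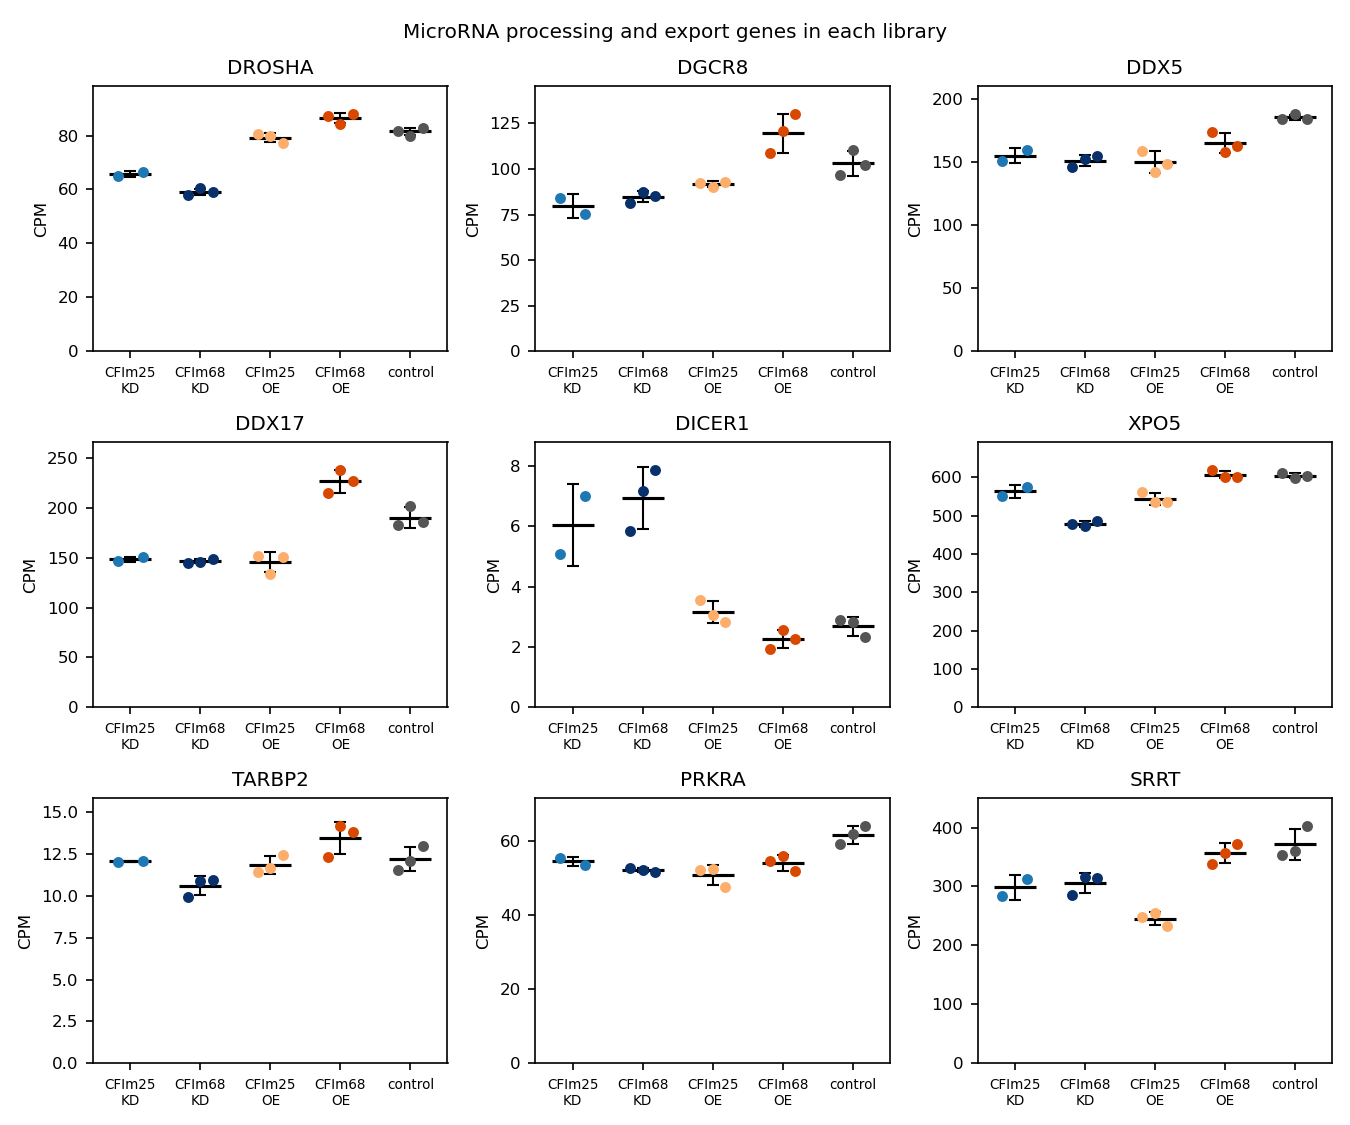
CPM (counts scaled to library size, vertical axis from 0) of the 9 genes in each of 14 libraries, by group (KD, knockdown; OE, overexpression). Points are libraries, bars are means and whiskers SD; DICER1 stands highest in the knockdowns, at 5.09 to 7.85 CPM, and DROSHA lowest there, at 57.9 to 66.5 CPM.

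DROSHA (chromosome 5, 31400497 to 31532196, hg38) had 64.9 and 66.5 CPM in CFIm25 knockdown, 57.9, 60.4 and 58.9 CPM in CFIm68 knockdown, 80.4, 79.7 and 77.2 CPM in CFIm25 overexpression and 87.3, 84.4 and 87.8 CPM in CFIm68 overexpression, against 81.9, 79.9 and 82.7 CPM in control. Every knockdown library lay below every control, and the 3 CFIm68 overexpression libraries lay just above them. The fall was -0.31 ± 0.06 (log2 ± SE) in CFIm25 knockdown (edgeR adjusted p = 7.4e-05) and -0.47 ± 0.05 in CFIm68 knockdown (edgeR adjusted p = 1.5e-08). In CFIm68 overexpression the log2 change of 0.09 ± 0.05 did not pass (edgeR adjusted p = 0.231), nor did that of -0.04 ± 0.05 in CFIm25 overexpression (edgeR adjusted p = 0.503).

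DGCR8 (chromosome 22, 20080232 to 20111877) had 84.1 and 75.1 CPM in CFIm25 knockdown, 81.5, 87.4 and 85.1 CPM in CFIm68 knockdown, 92.2, 90.1 and 93.1 CPM in CFIm25 overexpression and 109, 121 and 129.9 CPM in CFIm68 overexpression, against 96.6, 110.5 and 102 CPM in control. Knockdown and CFIm25 overexpression libraries all lay below control, while those of CFIm68 overexpression overlapped it. DGCR8 fell by 0.37 in CFIm25 knockdown (± 0.07 SE, log2; edgeR adjusted p = 9e-05) and by 0.28 in CFIm68 knockdown (± 0.06; edgeR adjusted p = 0.00039). The smaller changes in CFIm25 overexpression (-0.17 ± 0.06, edgeR adjusted p = 0.0280) and CFIm68 overexpression (0.22 ± 0.06, edgeR adjusted p = 0.0103) passed the test with all libraries. The first was lost without control replicate 2 (-0.11, adjusted p = 0.179), CFIm25 overexpression replicate 1 (0.0547) or replicate 2 (0.0820), and the second without control replicate 1 (0.0758) or CFIm68 overexpression replicate 3 (0.0895).

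Within the Microprocessor pair, the log2 ratio of DROSHA over DGCR8 per kb of exon averaged -0.36 ± 0.14 in CFIm25 knockdown, -0.61 ± 0.02 in CFIm68 knockdown, -0.30 ± 0.05 in CFIm25 overexpression and -0.55 ± 0.13 in CFIm68 overexpression, against -0.42 ± 0.12 in control (SD). Only the CFIm68 knockdown libraries lay wholly outside the control range among these groups (exact two-sided permutation test, p = 0.1, the smallest p that 3 against 3 allows).

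The helicase paralogs DDX5 (chromosome 17, 64499616 to 64508199) and DDX17 (chromosome 22, 38483440 to 38507660) fell side by side in 3 groups and, with library scaling alone, parted in the fourth. DDX5 had 151 and 159.5 CPM in CFIm25 knockdown, 146, 152 and 154.5 CPM in CFIm68 knockdown, 159, 142 and 149 CPM in CFIm25 overexpression and 174, 158 and 163 CPM in CFIm68 overexpression, against 184, 188 and 184 CPM in control. All 11 perturbed libraries lay below the controls. DDX17 had 147 and 150.3 CPM in CFIm25 knockdown, 145, 146 and 149 CPM in CFIm68 knockdown, 152, 134 and 150.3 CPM in CFIm25 overexpression and 215, 238 and 227 CPM in CFIm68 overexpression, against 183, 202 and 186 CPM in control. Here the CFIm68 overexpression libraries lay above every control and the rest below.

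The log2 changes of DDX5 were -0.26 ± 0.06 in CFIm25 knockdown, -0.30 ± 0.05 in CFIm68 knockdown and -0.30 ± 0.05 in CFIm25 overexpression (edgeR adjusted p = 0.00071, 2.2e-05 and 1.7e-05). Those of DDX17 were -0.36 ± 0.06, -0.37 ± 0.06 and -0.39 ± 0.06 in the same groups (edgeR adjusted p = 2.9e-05, 1.5e-06 and 1.1e-06). In CFIm68 overexpression DDX17 rose by 0.25 ± 0.06 (edgeR adjusted p = 0.00086) while DDX5 fell by 0.17 (± 0.05; edgeR adjusted p = 0.0166). The DDX5 call was lost without control replicate 2 (adjusted p = 0.0530), CFIm68 overexpression replicate 2 (0.103) or replicate 3 (0.0506). Both calls in CFIm68 overexpression were lost with the median of 50 neighbouring genes removed, as described below. There DDX17 stood at 0.13 (edgeR adjusted p = 0.112) and DDX5 at -0.03 (edgeR adjusted p = 0.672). The neighbour median was 0.12 around DDX17 and -0.13 around DDX5. The log2 ratio of DDX17 over DDX5 per kb ran from -0.13 to 0.15 in CFIm68 overexpression, against -0.45 to -0.33 in control (exact two-sided permutation p = 0.1, the smallest possible). In CFIm25 knockdown it ran from -0.52 to -0.47, just below control (exact two-sided permutation p = 0.2). In CFIm68 knockdown (-0.49 to -0.44) and CFIm25 overexpression (-0.52 to -0.42) it overlapped control. Reads from stretches that the paralogs share could be assigned to either.

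**Figure D2:**
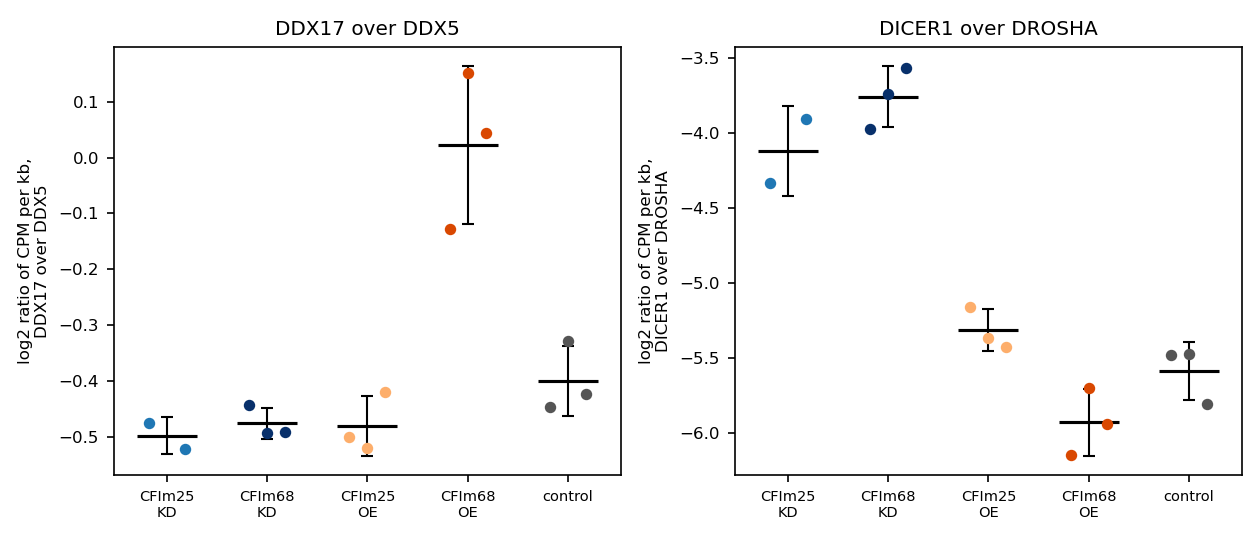
Log2 ratios of CPM per kb of exon (vertical axes), DDX17 over DDX5 and DICER1 over DROSHA, in each library by group, with means and SD. DDX17 over DDX5 stands above control in CFIm68 overexpression, at -0.13 to 0.15, and just below it in CFIm25 knockdown, at -0.52 to -0.47. DICER1 over DROSHA stands above control in the knockdowns, at -4.33 to -3.57, and by less in CFIm25 overexpression, at -5.425 to -5.158.

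SRRT (chromosome 7, 100875111 to 100888664) was the gene of this set that moved most in CFIm25 overexpression. It had 284 and 313 CPM in CFIm25 knockdown, 286, 317 and 314 CPM in CFIm68 knockdown, 248, 254 and 233 CPM in CFIm25 overexpression and 339, 357 and 372 CPM in CFIm68 overexpression, against 353, 360.5 and 402 CPM in control. The CFIm25 overexpression libraries were the lowest of all 14. The log2 change was -0.60 ± 0.06 there (edgeR adjusted p = 9.8e-10), -0.32 ± 0.06 in CFIm25 knockdown (edgeR adjusted p = 0.00019) and -0.28 ± 0.06 in CFIm68 knockdown (edgeR adjusted p = 0.00011). In CFIm68 overexpression it was -0.06 ± 0.06 and did not pass (edgeR adjusted p = 0.438).

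XPO5 (chromosome 6, 43522330 to 43576075), the exporter, had 552 and 576 CPM in CFIm25 knockdown, 477.5, 473 and 486 CPM in CFIm68 knockdown, 563, 535.5 and 535 CPM in CFIm25 overexpression and 618, 602 and 602 CPM in CFIm68 overexpression, against 612, 598 and 605 CPM in control. The CFIm68 knockdown libraries were lowest and apart from all others. XPO5 fell by 0.34 in CFIm68 knockdown (± 0.04 SE, log2; edgeR adjusted p = 1.8e-07) and by 0.15 in CFIm25 overexpression (± 0.04; edgeR adjusted p = 0.00409). In CFIm25 knockdown the change of -0.10 ± 0.05 did not pass (edgeR adjusted p = 0.0883), although DESeq2 called it (adjusted p = 0.0375). In CFIm68 overexpression it was 0.0053 ± 0.04, with a 95% interval from -0.08 to 0.09.

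DICER1 (chromosome 14, 95086228 to 95158010) moved most, and was counted least. Its unscaled counts were 112 and 234 reads in CFIm25 knockdown, 171, 174 and 194 reads in CFIm68 knockdown, 83, 54 and 49 reads in CFIm25 overexpression and 30, 46 and 36 reads in CFIm68 overexpression, against 51, 52 and 42 reads in control. Scaled, they came to 5.09 and 7.01 CPM in CFIm25 knockdown, 5.83, 7.16 and 7.85 CPM in CFIm68 knockdown, 3.56, 3.06 and 2.84 CPM in CFIm25 overexpression and 1.95, 2.56 and 2.26 CPM in CFIm68 overexpression, against 2.89, 2.84 and 2.33 CPM in control. All 5 knockdown libraries lay above every other library, and both overexpression groups overlapped control. DICER1 was 2.29-fold higher in CFIm25 knockdown (log2 1.19 ± 0.18, edgeR adjusted p = 3.1e-06) and 2.57-fold higher in CFIm68 knockdown (log2 1.36 ± 0.16, edgeR adjusted p = 4.2e-08). The overexpression changes were 0.24 ± 0.19 with CFIm25 (95% interval -0.13 to 0.62) and -0.24 ± 0.21 with CFIm68 (-0.66 to 0.17), and neither passed (edgeR adjusted p = 0.283 and 0.411).

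Per kb of annotated exon, DICER1 averaged 0.219 ± 0.0253 CPM per kb in control, below the other 8 genes. In control SRRT (76.7 ± 5.41) and XPO5 (71.0 ± 0.827) stood highest, followed by DDX5 (25.1 ± 0.285), DDX17 (19.0 ± 1.05), PRKRA (15.7 ± 0.615), DGCR8 (14.1 ± 0.961), DROSHA (10.5 ± 0.185) and TARBP2 (2.98 ± 0.180 CPM per kb). Among neighbours in this order the libraries of PRKRA and DGCR8 overlapped. Lengths are unions of GENCODE 29 exons. The counts may leave out last exons, since the table lists 78 of 1117 annotated protein-coding genes with a single block of exons (6.98%), against 16833 of 18834 with several (89.4%); no label says so. Levels per kb, the low DICER1 counts and the log2 changes of every gene would then describe upstream exons alone. With exon bases outside last exons as the length, control levels were 149.5 ± 10.6 for SRRT, 117 ± 1.36 for XPO5, 27.5 ± 1.08 for PRKRA, 27.4 ± 1.87 for DGCR8 and 0.566 ± 0.0656 CPM per kb for DICER1, and the order of the 9 means was the same. Whether last exons entered the counts was not tested further, so levels per kb are uncertain for every gene. DICER1 over DROSHA, as a log2 ratio per kb, averaged -4.12 ± 0.30 with CFIm25 knocked down and -3.76 ± 0.20 with CFIm68 knocked down, against -5.59 ± 0.19 in control (exact two-sided permutation p = 0.1 each, the smallest possible). In CFIm25 overexpression it ran from -5.425 to -5.158, also above the -5.811 to -5.475 of control (exact two-sided permutation p = 0.1). The CFIm68 overexpression libraries, at -6.145 to -5.702, overlapped control. In CFIm25 overexpression DICER1 itself did not pass (edgeR adjusted p = 0.283). The neighbour median in that group, described below, was 0.31 around DICER1 and 0.12 around DROSHA.

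Of the partners of DICER1, with library scaling alone, PRKRA was lower than control in every perturbed group and TARBP2 passed in no comparison with control. With neighbour medians removed, as described below, PRKRA passed in none of these comparisons and TARBP2 passed as lower in CFIm68 knockdown. TARBP2 (chromosome 12, 53500921 to 53506431) had 12.0 and 12.1 CPM in CFIm25 knockdown, 9.96, 10.9 and 11.0 CPM in CFIm68 knockdown, 11.4, 11.7 and 12.5 CPM in CFIm25 overexpression and 12.3, 14.1 and 13.8 CPM in CFIm68 overexpression, against 11.5, 12.1 and 13.0 CPM in control. The CFIm68 knockdown libraries all lay below control (-0.20 ± 0.09, edgeR adjusted p = 0.0581; 0.0485 without control replicate 1). The other log2 changes were -0.02 ± 0.10 in CFIm25 knockdown, -0.04 ± 0.09 in CFIm25 overexpression and 0.14 ± 0.09 in CFIm68 overexpression. The 95% interval in CFIm25 knockdown, -0.21 to 0.18, includes small changes either way.

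PRKRA (chromosome 2, 178431414 to 178451512) had 55.5 and 53.7 CPM in CFIm25 knockdown, 52.9, 52.3 and 51.7 CPM in CFIm68 knockdown, 52.3, 52.5 and 47.8 CPM in CFIm25 overexpression and 54.7, 56.0 and 51.9 CPM in CFIm68 overexpression, against 59.2, 62.0 and 64.1 CPM in control. All perturbed libraries lay below all controls. PRKRA fell by 0.24 in CFIm68 knockdown (± 0.06 SE, log2; edgeR adjusted p = 0.00091) and by 0.28 in CFIm25 overexpression (± 0.06; edgeR adjusted p = 0.00022). It also passed in CFIm25 knockdown (-0.18 ± 0.06, edgeR adjusted p = 0.0232) and in CFIm68 overexpression (-0.19 ± 0.06, edgeR adjusted p = 0.0170). The call in CFIm25 knockdown depended on single libraries and was lost without control replicate 2 (adjusted p = 0.0503), control replicate 3 (0.0726), CFIm25 knockdown replicate 1 (0.0560) or replicate 2 (0.158), and with no filter on low counts (0.0526). In CFIm68 overexpression it was lost without control replicate 3 (0.0658) or CFIm68 overexpression replicate 3 (0.0831). As a log2 ratio per kb, TARBP2 over PRKRA ran from -2.26 to -2.21 in CFIm25 knockdown, -2.25 to -1.99 in CFIm25 overexpression and -2.20 to -1.96 in CFIm68 overexpression, all above the -2.42 to -2.36 of control (exact two-sided permutation p = 0.1 each, the smallest possible), and from -2.46 to -2.29 in CFIm68 knockdown, which overlapped control. In CFIm25 knockdown, CFIm25 overexpression and CFIm68 overexpression the neighbour median, described below, was -0.15, -0.26 and -0.20 around PRKRA. Around TARBP2 it was 0.06, -0.05 and 0.05.

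**Figure D3:**
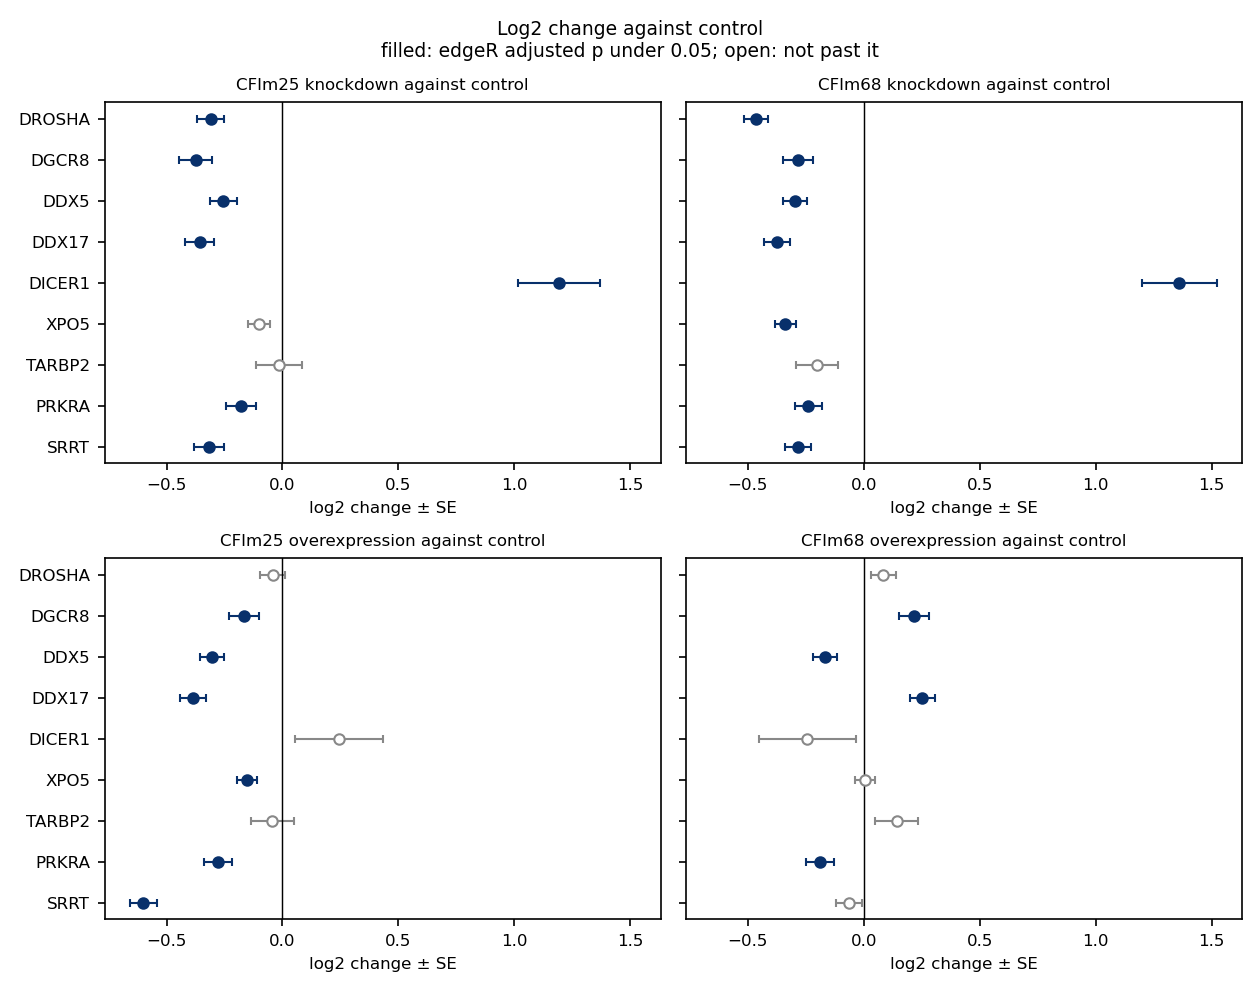
Log2 change of each gene against control (horizontal axis, ± SE) in the 4 perturbed groups. Filled points passed the edgeR test at an adjusted p under 0.05 and open points did not; DICER1 stands to the right in both knockdowns, at 1.19 and 1.36, and SRRT furthest to the left in CFIm25 overexpression, at -0.60.

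Neighbours of a gene were the 50 tested genes next to it in order along the chromosome. In each library the median of their log2 CPM was taken, relative to each gene's mean over all libraries, and averaged by group. Around DICER1 the difference of this average from control was 0.27 in CFIm25 knockdown, 0.29 in CFIm68 knockdown, 0.31 in CFIm25 overexpression and -0.22 in CFIm68 overexpression. Around XPO5 the same difference was -0.13, -0.10, -0.30 and 0.03, around PRKRA -0.15, -0.12, -0.26 and -0.20, and around DGCR8 -0.22, -0.12, -0.16 and 0.10. With these medians removed from each library, DICER1 still rose, by 0.92 in CFIm25 knockdown (edgeR adjusted p = 7.4e-05) and by 1.07 in CFIm68 knockdown (edgeR adjusted p = 1.2e-06). DROSHA (-0.34 and -0.45), DDX5 (-0.33 and -0.40), DDX17 (-0.31 and -0.38) and SRRT (-0.37 and -0.37) still passed as lower in CFIm25 and CFIm68 knockdown, as did SRRT in CFIm25 overexpression (-0.67, edgeR adjusted p = 4.5e-11).

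Other calls did not survive that removal. DGCR8 did not pass in CFIm25 knockdown (-0.16, edgeR adjusted p = 0.0768) and passed at -0.16 in CFIm68 knockdown (edgeR adjusted p = 0.0359). In CFIm25 overexpression its call was also lost (-0.0032, edgeR adjusted p = 0.972). PRKRA passed in none of the 4 comparisons (-0.12 to 0.0091). XPO5 turned round in CFIm25 overexpression, to 0.15 (edgeR adjusted p = 0.00813), and kept its fall in CFIm68 knockdown (-0.24, edgeR adjusted p = 8.9e-05). TARBP2 passed as lower in CFIm68 knockdown (-0.37, edgeR adjusted p = 0.00083) and DROSHA in CFIm25 overexpression (-0.16, edgeR adjusted p = 0.0162). In CFIm68 overexpression 0 of 9 genes passed in edgeR, and 1 did at an unadjusted p under 0.05, where library scaling alone gave 4 called, as did DESeq2.

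**Figure D4:**
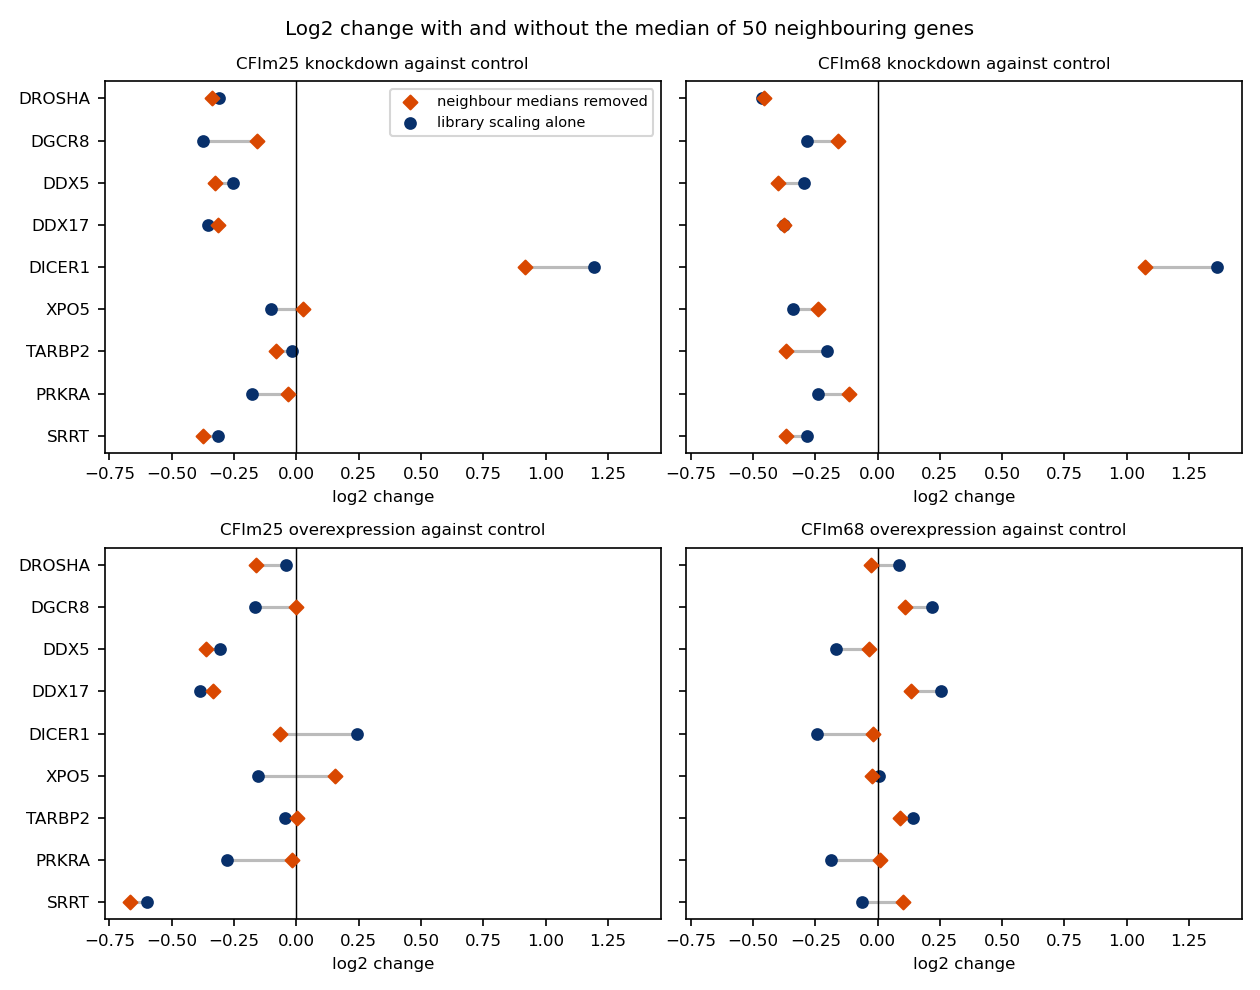
Log2 change against control of each gene (horizontal axis) with library scaling alone (circles) and with the median of 50 neighbouring genes removed (diamonds). XPO5 changes sign in CFIm25 overexpression, -0.15 without and 0.15 with removal, while SRRT keeps its place there, at -0.60 and -0.67.

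Direct comparisons asked whether groups perturbed for different subunits differ. They cannot tell a difference between subunits from one in the size of the perturbation. NUDT21 rose 1.42-fold in CFIm25 overexpression and CPSF6 rose 2.72-fold in CFIm68 overexpression, against control. CFIm68 knockdown also lowered NUDT21 2.21-fold. CFIm68 knockdown against CFIm25 knockdown gave 0 genes higher (also 0 at an unadjusted p under 0.05, and by DESeq2 and limma-voom), 2 lower and 7 not past, with 24.2% of all tested genes called, 13.2% lower. XPO5 was lower in CFIm68 knockdown (-0.24 ± 0.05, edgeR adjusted p = 0.00055). DROSHA was lower by 0.16 (± 0.06; edgeR adjusted p = 0.0476), a call lost without any 1 of the 5 libraries (adjusted p = 0.0747 to 0.232), with no filter on low counts (0.0836) and with neighbour medians removed (0.166). Each of these removals of a library left 1 gene called in place of 2. For DICER1 the difference was 0.17 ± 0.15, with a 95% interval from -0.12 to 0.45, and for DDX17 it was -0.02 ± 0.06 (-0.14 to 0.10). TARBP2 passed only with neighbour medians removed (-0.29, edgeR adjusted p = 0.0224).

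Between the overexpression groups more genes passed than between the knockdowns, in this set and over all tested genes (63.7% called against 24.2%). CFIm68 overexpression against CFIm25 overexpression gave 6 of 9 genes higher, 1 lower and 2 not past, with 63.7% of all tested genes called, 32.9% higher and 30.8% lower. DDX17 (0.64 ± 0.06, edgeR adjusted p = 6.5e-11), SRRT (0.54 ± 0.06, edgeR adjusted p = 3.9e-09) and DGCR8 (0.38 ± 0.06, edgeR adjusted p = 6.8e-06) were higher with CFIm68, and their libraries did not overlap. With neighbour medians removed DDX17 stood at 0.47 and SRRT at 0.77, both past the test, and DGCR8 at 0.11, not past (edgeR adjusted p = 0.137). XPO5 was higher with CFIm68 by library scaling alone (0.16 ± 0.04, edgeR adjusted p = 0.00254) and lower once the medians were removed (-0.18, edgeR adjusted p = 0.00212).

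DROSHA (0.13 ± 0.05, edgeR adjusted p = 0.0339), DDX5 (0.14 ± 0.05, edgeR adjusted p = 0.0260) and DICER1 (-0.49 ± 0.20, edgeR adjusted p = 0.0362) passed by little. DROSHA lost the call without CFIm25 overexpression replicate 1 (adjusted p = 0.0645), 2 (0.0678) or 3 (0.108) and without CFIm68 overexpression replicate 1 (0.0652) or 3 (0.0906). It also lost it when only the compared groups were fitted (0.134), under the filter of 1 CPM in 3 libraries (0.0540) and without a filter (0.0996). DDX5 lost it without CFIm25 overexpression replicate 2 (0.09, adjusted p = 0.173) or 3 (0.0633) or CFIm68 overexpression replicate 1 (0.129) and with the compared groups alone (0.111), and DICER1 without CFIm25 overexpression replicate 1 (0.135) or CFIm68 overexpression replicate 1 (0.126) or 3 (0.0706). DICER1 also missed the threshold by DESeq2 (0.0566) and limma-voom (0.0617), and stood at 0.04 with neighbour medians removed. With neighbour medians removed DDX5 stood at 0.33 (edgeR adjusted p = 8.1e-07). TARBP2 (0.19 ± 0.09) passed only without CFIm68 overexpression replicate 1 (0.24, adjusted p = 0.0378).

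Comparisons of knockdown with overexpression of the same subunit do not use the controls. CFIm68 knockdown against CFIm68 overexpression gave 1 of 9 higher, 7 lower and 1 not past, with 67.1% of all tested genes called, 33.7% higher and 33.5% lower. DICER1 was 3.04-fold higher in CFIm68 knockdown (log2 1.60 ± 0.17, edgeR adjusted p = 2.7e-09). DDX17 (-0.63 ± 0.06), DROSHA (-0.55 ± 0.05), DGCR8 (-0.50 ± 0.06), TARBP2 (-0.35 ± 0.09), XPO5 (-0.34 ± 0.04) and SRRT (-0.22 ± 0.06) were lower, at edgeR adjusted p-values of 5.5e-11, 2.7e-10, 6.4e-08, 0.00147, 7.3e-08 and 0.00119. DDX5 (-0.13 ± 0.05, edgeR adjusted p = 0.0330) lost its call without CFIm68 knockdown replicate 1 (0.133) or 2 (0.0609) or CFIm68 overexpression replicate 1 (0.155) and without a filter (0.0536), and stood at -0.37 with neighbour medians removed, where SRRT stood at -0.47 and DGCR8 at -0.27, all past the test. PRKRA did not pass (-0.05 ± 0.06, 95% interval -0.17 to 0.06).

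CFIm25 knockdown against CFIm25 overexpression gave 2 higher, 2 lower and 5 not past, with 56.1% of all tested genes called, 28.6% higher and 27.5% lower. DICER1 was 1.93-fold higher in CFIm25 knockdown (log2 0.95 ± 0.17, edgeR adjusted p = 2.5e-05) and SRRT was higher by 0.28 ± 0.06 (edgeR adjusted p = 0.0004). DROSHA was lower (-0.27 ± 0.06, edgeR adjusted p = 0.00028). DGCR8 was also lower (-0.21 ± 0.07, edgeR adjusted p = 0.0142), a call lost without CFIm25 knockdown replicate 2 (-0.12, adjusted p = 0.281) and with neighbour medians removed (-0.15, 0.0715). DDX5 (0.05 ± 0.06) and DDX17 (0.03 ± 0.06), which were lower than control in both groups, did not differ past the test, with 95% intervals of -0.07 to 0.16 and -0.09 to 0.15. SRRT was lower than control in both groups, and lower still with CFIm25 overexpressed than with it knocked down.

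**Figure D5:**
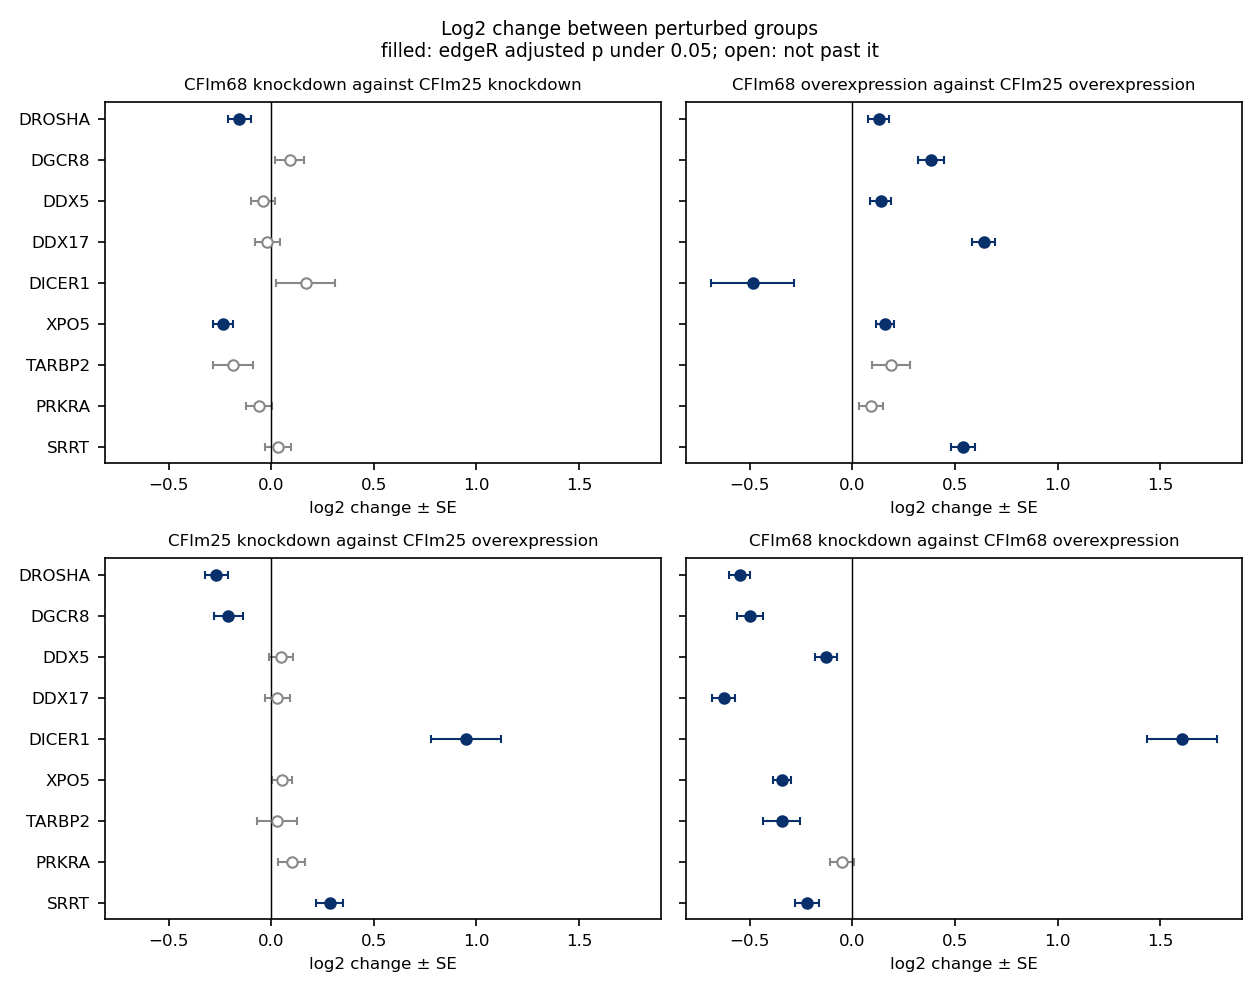
Log2 change of each gene (horizontal axis, ± SE) between perturbed groups, the group named before "against" over the other. Filled points passed the edgeR test at an adjusted p under 0.05; DICER1 is higher in knockdown than in overexpression of either subunit, at 0.95 and 1.60, and DDX17 is highest in CFIm68 against CFIm25 overexpression, at 0.64.

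Across the 14 libraries DROSHA and DICER1 ran opposite ways, with Pearson r = -0.95 between their log2 CPM. So did DGCR8 and DICER1 (r = -0.81) and XPO5 and DICER1 (r = -0.78). DGCR8 and DDX17 ran together (r = 0.90), as did DROSHA and XPO5 (r = 0.86) and DDX5 and PRKRA (r = 0.80). These values describe libraries that fall into 5 groups and share depth and scaling, and carry no p. With genes under a mean of 5 CPM left out, the profiles most like that of DROSHA were those of TMEM126A (r = 0.99) and PABIR2 (0.99), and most like DGCR8 those of RHBDF1 (0.98) and CYTH2 (0.98). For DDX17 they were LRP4 (0.99) and NDST2 (0.97), for DDX5 CWC22 (0.92) and HNRNPM (0.92), and for SRRT HMOX2 (0.98) and TACC3 (0.97). COX15 and MFSD4A (0.97 each) were most like DICER1, IMPA1 and RPS6KB2 (0.97 each) most like XPO5, E2F4 (0.95) and METTL26 (0.92) most like TARBP2, and ATP6V1H (0.96) and HIBCH (0.91) most like PRKRA.

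Other genes of the pathway were followed as lists chosen by role. Of all tested genes, 28.3% rose and 28.1% fell in CFIm68 knockdown, 24.4% and 23.2% in CFIm25 knockdown, 27.7% and 29.1% in CFIm25 overexpression, and 14.5% and 15.4% in CFIm68 overexpression, and the list counts stand beside these shares. Of 14 tested cofactors and interactors of the Microprocessor, 3 rose and 5 fell in CFIm68 knockdown, 3 rose and 4 fell in CFIm25 knockdown, 2 rose and 7 fell in CFIm25 overexpression, and 2 rose and 1 fell in CFIm68 overexpression, against control. The numbers called in the knockdowns, 8 and 7 of 14, were close to the shares of all tested genes called, 56.4% and 47.6%. ERH, a small protein that binds the Microprocessor, rose in CFIm25 knockdown (0.45 ± 0.06, edgeR adjusted p = 1.5e-06) and CFIm68 knockdown (0.29 ± 0.06, edgeR adjusted p = 7.6e-05), whereas the RNA-binding protein gene EWSR1 fell in CFIm68 knockdown (-0.40 ± 0.06, edgeR adjusted p = 7.8e-07). Of 9 tested cap-binding and nuclear RNA sorting partners of SRRT, 1 rose and 3 fell in CFIm68 knockdown, 2 and 1 in CFIm25 knockdown, 3 and 2 in CFIm25 overexpression, and 1 and 1 in CFIm68 overexpression. Among them NCBP3, a cap-binding protein gene, fell in CFIm68 knockdown (-1.61 ± 0.36, edgeR adjusted p = 0.00042), as did ZFC3H1 (-0.39 ± 0.11, edgeR adjusted p = 0.00353), a subunit of a nuclear exosome targeting complex. ZFC3H1 also fell in CFIm25 overexpression (-0.44 ± 0.11, edgeR adjusted p = 0.00168), where NCBP3 did not pass (0.22 ± 0.30).

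Of 10 tested genes of the RanGTP cycle and of other nuclear transport receptors, 0 rose and 6 fell in CFIm68 knockdown, 0 and 5 in CFIm25 knockdown, 1 and 4 in CFIm25 overexpression, and 2 and 1 in CFIm68 overexpression. XPO4, a relative of XPO5 in the exportin family, fell in CFIm68 knockdown (-0.74 ± 0.06, edgeR adjusted p = 2.6e-11) and CFIm25 knockdown (-0.59 ± 0.07, edgeR adjusted p = 4.6e-08) and rose in CFIm68 overexpression (0.24 ± 0.06, edgeR adjusted p = 0.00262). RANBP1, a Ran-binding protein gene, fell in CFIm68 knockdown (-0.30 ± 0.05, edgeR adjusted p = 4.4e-06) and CFIm25 overexpression (-0.37 ± 0.05, edgeR adjusted p = 1.8e-07) and rose in CFIm68 overexpression (0.18 ± 0.05, edgeR adjusted p = 0.00406). Of 11 tested genes that tail, trim or degrade microRNAs and their precursors, 4 rose and 1 fell in CFIm68 knockdown, 3 and 1 in CFIm25 knockdown, 5 and 3 in CFIm25 overexpression, and 0 and 2 in CFIm68 overexpression. The nuclease genes XRN1 (0.49 ± 0.10, edgeR adjusted p = 0.00024) and SND1 (0.46 ± 0.05, edgeR adjusted p = 3.1e-09) rose in CFIm68 knockdown. SND1 also rose in CFIm25 knockdown (0.24 ± 0.05, edgeR adjusted p = 0.0005) and fell in CFIm68 overexpression (-0.31 ± 0.05, edgeR adjusted p = 1.6e-05), and XRN1 rose in CFIm25 overexpression (0.33 ± 0.11, edgeR adjusted p = 0.0117).

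Downstream of DICER1, the silencing complex genes AGO1 to AGO4 and TNRC6B, the 5 tested of that list, had 5 higher and 0 lower in CFIm68 knockdown, 3 and 0 in CFIm25 knockdown, 0 and 3 in CFIm25 overexpression, and 0 and 0 in CFIm68 overexpression, where 29.8% of all tested genes were called. TNRC6B, a scaffold that recruits deadenylases to Argonaute, rose in CFIm68 knockdown (1.64 ± 0.08, edgeR adjusted p = 6.9e-16) and CFIm25 knockdown (1.08 ± 0.09, edgeR adjusted p = 1.2e-10). AGO4 also rose in both, by 0.92 and 0.53. TNRC6B fell in CFIm25 overexpression (-0.50 ± 0.09, edgeR adjusted p = 3.4e-05) and AGO4 did not pass there (0.07 ± 0.07). Of 3 tested (of 12 listed) microRNA host transcripts 0 rose and 2 fell in CFIm68 knockdown, 0 and 3 in CFIm25 knockdown, 0 and 3 in CFIm25 overexpression, and 1 and 0 in CFIm68 overexpression. The hosts MIR34AHG (-1.31 and -1.42 in CFIm68 and CFIm25 knockdown) and MIR503HG (-1.32 and -1.31) fell in both knockdowns (edgeR adjusted p at most 0.00280). MIR34AHG (-0.73 ± 0.10, edgeR adjusted p = 4.4e-07) and MIR503HG (-0.98 ± 0.32, edgeR adjusted p = 0.0112) were lower in CFIm25 overexpression. MIR34AHG rose in CFIm68 overexpression (0.29 ± 0.09, edgeR adjusted p = 0.0186). Where a list had 0 genes called in a direction against control, DESeq2 and limma-voom also called 0, and edgeR had at most 2 at an unadjusted p under 0.05.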

How the data were processed

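The values are the authors' deposited raw counts, one integer per gene and library. The submitters' processing notes name cutadapt 1.16, STAR 2.7.1a and the genome build hg38. The counting tool, its annotation, exons and strand setting were not given in the sources used here, and last exons may be left out of the counts. If strand was ignored, exons of genes on the opposite strand overlap those of DGCR8, DDX5, DDX17, DICER1, XPO5, TARBP2 and PRKRA. Counts were fitted in R 4.3.3 with edgeR 4.0.16 (filterByExpr with minimum count 10 and minimum total 15, TMM scaling, 1 coefficient per group, 14 libraries), with Benjamini-Hochberg adjustment over the 12080 tested genes, with a threshold of 0.05. The scripts were tested on simulated data with known changes. CPM are TMM-scaled; marker CPM use total counts. Errors of log2 changes are SE from the quasi-likelihood statistic, 95% intervals are normal approximations, and other errors are SD. Alternatives were other scaling and filters, DESeq2 1.42.0, limma-voom (limma 3.58.1), a replicate block, the compared groups alone, leaving out each library and, added later, removal of neighbour medians. The named genes are the 9 members, NUDT21, CPSF6, the 2 most changed called genes of each list in CFIm68 knockdown and the 2 most similar profiles per member; other genes serve as markers. Members and lists were chosen with earlier results of these data known.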

Additional observations from a re-analysis of the deposited data

Results flagged for a closer look

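The direct comparisons test whether groups perturbed for different subunits differ, and 9 values passed. Between the knockdowns 2 of 9 genes were called, where 24.2% of all tested genes were. Between the overexpression groups 7 of 9 genes were called, where 63.7% of all tested genes were. The perturbations were unequal in size, so a difference between groups need not be one between subunits. Between the knockdowns, CFIm68 against CFIm25, the log2 difference was -0.16 for DROSHA and -0.24 for XPO5. Between the overexpression groups, CFIm68 against CFIm25, it was 0.13 for DROSHA, 0.38 for DGCR8, 0.14 for DDX5, 0.64 for DDX17, -0.49 for DICER1, 0.16 for XPO5 and 0.54 for SRRT. Some of these calls were lost when single libraries were left out, as given above, among them DROSHA in both comparisons. With neighbour medians removed, XPO5 (-0.18) and DICER1 (0.044) changed sign between the overexpression groups. DICER1 also missed the threshold there by DESeq2 and limma-voom. Groups of 2 or 3 libraries were too small to look for single outlying libraries.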

How the results depend on the processing

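Of the 72 changes reported (9 genes, 8 comparisons), median-ratio size factors kept the sign and the side of the threshold of all, DESeq2 of 70, limma-voom of 71, the filter of 1 CPM in 3 libraries of 71, no filter of 68, the compared groups alone of 69 and removal of neighbour medians of 44. Replicate numbers did not pair the libraries (correlation of deviations -0.06 to 0.17 between same-numbered libraries). The replicate block changed no call, and its sole change of sign was TARBP2 in CFIm25 knockdown (0.012). With the compared groups alone XPO5 in CFIm68 overexpression was -0.00326. With neighbour medians removed the sign turned against control for XPO5 (0.026 in CFIm25 knockdown, 0.154 in CFIm25 overexpression, -0.024 in CFIm68 overexpression), DICER1 (-0.065) and TARBP2 (0.0042) in CFIm25 overexpression, and DROSHA (-0.026), PRKRA (0.0091) and SRRT (0.10) in CFIm68 overexpression, where 0 genes of the set were called. It also turned for DGCR8 between knockdowns (-0.0032), DICER1 (0.044) and XPO5 (-0.18) between overexpression groups, and XPO5 (-0.13), TARBP2 (-0.086) and PRKRA (-0.015) in CFIm25 knockdown against overexpression. That removal was chosen after the data were seen, and the cause was not tested.

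Leaving out 1 library gave -0.0075 to 0.014 for XPO5 in CFIm68 overexpression and, for TARBP2, -0.055 to 0.031 in CFIm25 knockdown, -0.084 to 0.0024 in CFIm25 overexpression and -0.020 to 0.062 between CFIm25 knockdown and overexpression. Between knockdowns it gave -0.020 to 0.44 for DICER1, -0.037 to 0.11 for SRRT and -0.081 to 0.0012 for DDX5, and -0.036 to 0.051 for DDX17 between CFIm25 knockdown and overexpression. Between knockdowns the genes called over the whole table numbered 1465 (without CFIm25 knockdown replicate 1) to 2384, in place of 2929, and those of the set 1 to 1 in place of 2, as with no filter (1). In CFIm68 overexpression those of the set numbered 1 to 4. Depth limits DICER1 most, at 30 to 52 counts in the CFIm68 overexpression and control libraries.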
